A study of Rattus norvegicus with 12 samples.

Results

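Gene expression in the renal cortex was compared between 3 male rats given TCE and 3 male rats given its vehicle, using the 6 kidney arrays of a series of 12 arrays. Arrays were assigned to a group by the word in their title that marks a kidney as treated or control; the other 6 arrays hold liver of the same study and serve here as a reference for tissue identity and for the difference between the tissues. TCE, trichloroethylene, is a chlorinated solvent. Treated rats received 16 mg/kg/day by mouth for 3 days in corn oil at 5 ml/kg, and controls received corn oil alone. All rats were 7 to 9 weeks old and weighed 190 to 240 g, and their strain is labelled both F-344 and Wistar-derived. They were killed 24 hours after the last dose, under a 12 hour light cycle, and about 50 mg of cortex was taken from each. The clock time of killing is not given in the sources used here, and neither is the order in which treated and control rats were killed.

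The renal cortex holds glomeruli, whose podocytes form the filtration slits, and the tubule segments that process the filtrate. The proximal tubule reclaims glucose, amino acids, phosphate and filtered protein, the thick ascending limb and distal convoluted tubule reabsorb salt, and principal and intercalated cells of the collecting duct set the balance of sodium, water, potassium and acid. Trichloroethylene is oxidised by cytochrome P450 enzymes, mainly Cyp2e1, and is also conjugated with glutathione to products that proximal tubule enzymes can turn into reactive thiols.

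Values are log2 expression values, so that a difference of 1 is a 2-fold difference, and differences are TCE minus control. Of 14217 genes with a singly named probe set, 10563 were bright enough to test. By limma with Benjamini-Hochberg adjustment, 0 genes (0%) passed an adjusted p of 0.05, and the smallest adjusted p was 0.156. At an unadjusted limma p under 0.05 there were 1566 genes (14.8%), of which 799 (7.56%) were higher and 767 (7.26%) lower after TCE. The treated and control values did not overlap for 2121 genes (20.1%), 1085 of them (10.3%) higher and 1036 (9.81%) lower. The median difference over all tested genes was 0, with an interquartile range from -0.14 to 0.13, and 93 genes differed by more than 2-fold. Of the tested genes 49.6% were higher after TCE. Counts for gene groups below are therefore of unadjusted p-values, read beside these shares, and are descriptions of 6 arrays. Leaving out single arrays gave between 919 genes (without TCE replicate 1) and 2099 genes (without TCE replicate 2) at an unadjusted p under 0.05.

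The arrays carried markers of kidney. They were set against liver only, which does not tell cortex from medulla. All 13 thick ascending limb markers and 18 of 21 early proximal markers were higher on every kidney array than on any liver array. Kidney arrays correlated at 0.9948 to 0.997 within a group and at 0.9946 to 0.9955 between groups.

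Liver transcripts were present on some kidney arrays and stood highest on control replicate 2. Albumin (Alb) was 9.89, 12.80 and 7.84 on control arrays 1, 2 and 3 and 10.96, 4.36 and 6.31 on the TCE arrays. Control replicate 2 was the highest array and TCE replicate 2 the lowest, and the groups overlapped. The fetuin gene Ahsg was 4.69, 7.66 and 3.38 in controls and 4.28, 2.92 and 2.92 after TCE, and haptoglobin (Hp) was 3.42, 7.51 and 2.64 against 5.03, 2.39 and 2.54. The mean over 37 hepatocyte transcripts was 4.54, 5.73 and 4.16 on the control arrays and 4.63, 4.06 and 4.03 on the TCE arrays, against 14.63 to 14.75 on the liver arrays. The groups, at 4.24 ± 0.337 after TCE and 4.81 ± 0.815 in controls (SD, n = 3 each), differed by -0.57, with p = 0.3 in a two-sided exact permutation test, where 3 against 3 cannot go below 0.1. Of the 22 transcripts that passed 4 log2 units on some kidney array, 19 were highest on control replicate 2. Apoa1 stayed between 2.23 and 2.44 on all 6 kidney arrays. Of the 30 hepatocyte transcripts tested, 25 were lower and 5 higher, with a median of -0.474, and without control replicate 2 the median was -0.0583.

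**Figure D1:**
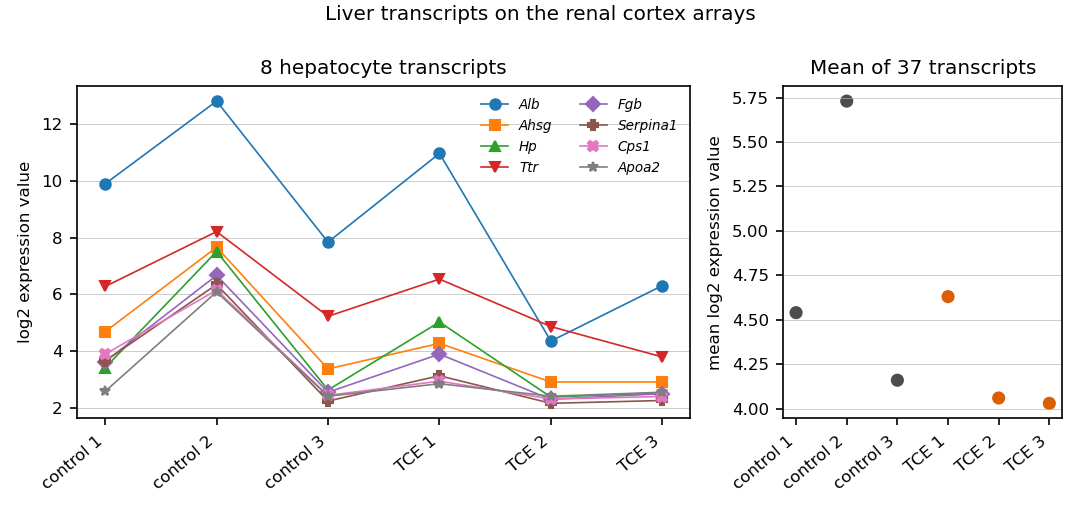
Log2 expression values of 8 hepatocyte transcripts on each of the 6 renal cortex arrays (left, 1 line per gene, picked as examples after their values were seen) and the mean over 37 hepatocyte transcripts on each array (right, grey control and orange TCE). Control replicate 2 is the highest array in both panels, at a mean of 5.73.

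Probe sets at the 3' and 5' ends of control transcripts, whose gap widens as RNA degrades, were read as well. For Gapdh the gap was 1.02, 0.85 and 1.05 log2 units in controls and 0.59, 0.87 and 0.51 after TCE (0.971 ± 0.11 and 0.655 ± 0.189, SD, n = 3 each; p = 0.2 by exact permutation). For Actb it was 4.49, 4.40 and 4.56 against 4.36, 4.36 and 4.20 (exact permutation p = 0.1, the smallest possible). The part of this gap and of the liver transcripts in the results below was not tested. For the liver transcripts, some values are also given without control replicate 2, without liver-rich genes or with the hepatocyte level as a covariate.

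Promoters of 5 genes are shown here because the groups they belong to, the circadian clock, the cell cycle and the unfolded protein response, hold many of the differences described below, and because each carries a motif long associated with its group. Each is the 300 bases that run from 250 before to 50 after the start of the gene in RefSeq's annotation of rat assembly GRCr8, written 5′ to 3′ along the gene's strand, with the motif in capitals. Per2 lies at chr9:99496944-99497243 (minus strand), Bhlhe41 at chr4:180569306-180569605 (minus), Mki67 at chr1:199952544-199952843 (minus), Hmmr at chr10:25665166-25665465 (minus) and Calr at chr19:40213117-40213416 (plus).
Per2: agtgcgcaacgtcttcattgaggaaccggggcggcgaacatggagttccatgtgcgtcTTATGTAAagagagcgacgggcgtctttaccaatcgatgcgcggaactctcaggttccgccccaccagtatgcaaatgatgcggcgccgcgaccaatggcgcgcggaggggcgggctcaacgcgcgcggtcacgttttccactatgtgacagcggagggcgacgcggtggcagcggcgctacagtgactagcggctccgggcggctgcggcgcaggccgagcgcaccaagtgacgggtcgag
Bhlhe41: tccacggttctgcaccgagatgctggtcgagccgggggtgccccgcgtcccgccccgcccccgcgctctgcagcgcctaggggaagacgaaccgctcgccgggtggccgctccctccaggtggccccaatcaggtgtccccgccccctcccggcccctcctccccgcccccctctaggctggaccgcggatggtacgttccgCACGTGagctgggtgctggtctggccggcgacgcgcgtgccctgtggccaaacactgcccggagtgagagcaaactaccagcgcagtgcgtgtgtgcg
Mki67: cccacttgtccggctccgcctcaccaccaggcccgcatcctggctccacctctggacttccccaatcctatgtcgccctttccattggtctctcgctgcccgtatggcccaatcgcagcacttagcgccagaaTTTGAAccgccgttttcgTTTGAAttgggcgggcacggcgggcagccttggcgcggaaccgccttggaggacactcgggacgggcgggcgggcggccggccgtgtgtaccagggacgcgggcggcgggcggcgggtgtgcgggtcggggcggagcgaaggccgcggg
Hmmr: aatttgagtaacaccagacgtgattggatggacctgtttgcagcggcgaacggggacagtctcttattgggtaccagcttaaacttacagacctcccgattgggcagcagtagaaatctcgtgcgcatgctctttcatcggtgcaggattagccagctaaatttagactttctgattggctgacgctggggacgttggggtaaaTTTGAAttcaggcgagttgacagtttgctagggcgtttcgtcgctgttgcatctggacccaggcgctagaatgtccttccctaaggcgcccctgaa
Calr: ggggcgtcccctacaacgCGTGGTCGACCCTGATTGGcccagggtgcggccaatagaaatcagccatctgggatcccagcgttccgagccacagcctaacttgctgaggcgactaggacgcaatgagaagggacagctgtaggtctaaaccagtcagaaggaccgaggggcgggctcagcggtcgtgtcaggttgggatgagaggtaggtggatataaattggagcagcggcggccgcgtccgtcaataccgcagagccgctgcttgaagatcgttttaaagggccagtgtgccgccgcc

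Capitals in Per2 mark TTATGTAA, the D-box to which Dbp and its competitor Nfil3 bind, and in Bhlhe41 they mark CACGTG, the E-box of the Bmal1 and Clock pair. In Mki67 and Hmmr they mark TTTGAA, the cell cycle homology region of late cell cycle genes, and in Calr they mark the endoplasmic reticulum stress element, CCAAT and CCACG with 9 bases between them, which lies there on the opposite strand. These 4 motifs do not overlap in the windows shown, they were searched on both strands, and they were chosen after others had also been looked at. The E-box was found for 4 of 17 tested clock genes with a promoter in the table (23.5%; Tef, Nr1d1, Bhlhe40 and Bhlhe41) and for 7.08% of all 27457 genes there, and the D-box for Per2 alone of the 17 (5.88%) and for 0.958% of all genes. TTTGAA was found for 11 of 21 tested cell cycle genes (52.4%) and 19.4% of all genes. The stress element was found for 7 of 21 unfolded protein response genes (33.3%) and 0.0765% of all genes. A match describes the letters in the window and not a bound site. The motifs were picked for their known association with these groups, so these shares are not a result of the TCE comparison.

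Of 21 tested clock genes, 15 were higher and 6 lower after TCE. Of these, 8 were higher at an unadjusted limma p under 0.05 (against 7.56% of all genes) and 3 lower (against 7.26%), and 0 passed the adjusted threshold. The list's median was 0.199, against 0 over all genes. With single arrays left out, 6 to 9 members were higher at that level and 1 or 2 lower, and the median was 0.183 to 0.408, the highest without control replicate 1.

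Dbp, a D-box activator with a strong daily rhythm, was 8.85, 8.46 and 8.68 in controls and 10.17, 10.25 and 10.26 after TCE, and every treated array lay above every control (1.56 ± 0.11 SE, limma adjusted p = 0.156). Its competitor Nfil3 was 4.69, 4.73 and 4.73 against 3.90, 3.43 and 3.86, with every treated array lower (-0.99 ± 0.14). Nfil3 was too dim to be tested with a stricter filter. Among the repressors of the Bmal1 and Clock pair, Per2 was 9.65, 9.16 and 9.30 against 9.82, 10.15 and 10.06 (0.64 ± 0.16). Per3 was 7.2, 7.06 and 7.08 against 7.48, 7.81 and 7.63 (0.52 ± 0.10). Per1 overlapped, at 8.08, 6.59 and 5.80 against 6.72, 7.63 and 7.24 (0.38 ± 0.61), and turned to -0.13 without control replicate 3.

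Bhlhe41, whose E-box is marked above, was 5.89, 5.75 and 6.10 in controls and 6.49, 7.28 and 7.25 after TCE (1.09 ± 0.24). Its relative Bhlhe40 was 8.52, 8.61 and 8.47 against 9.15, 8.97 and 9.15 (0.56 ± 0.08). The nuclear receptor Nr1d2 was 11.28, 10.91 and 11.25 against 11.84, 11.76 and 11.77 (0.64 ± 0.11). All 3 of these repressors were higher on each treated array than on any control. Nr1d1 was 5.96, 5.68 and 6.59 against 6.85, 6.81 and 6.59 (0.67 ± 0.24), a tie between the highest control and the lowest treated array at this rounding.

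Of the activators that the repressors act on, Bmal1 was 5.58, 5.54 and 4.94 in controls and 4.73, 4.95 and 4.89 after TCE (-0.49 ± 0.19), with overlap through control replicate 3. Its unadjusted limma p was 0.0451 and lay between 0.0745 and 0.132 without any single array other than control replicate 3. Bmal1 was too dim to be tested with a stricter filter. Npas2, which can replace Clock as a partner, was 5.01, 5.59 and 5.71 against 5.03, 4.58 and 4.58 (-0.71 ± 0.23), with overlap through control replicate 1 and TCE replicate 1. Clock itself differed by 0.01 ± 0.12, and a second probe set of it by -0.19. Bhlhe41, Npas2 and Clock were picked after their values were seen.

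**Figure D2:**
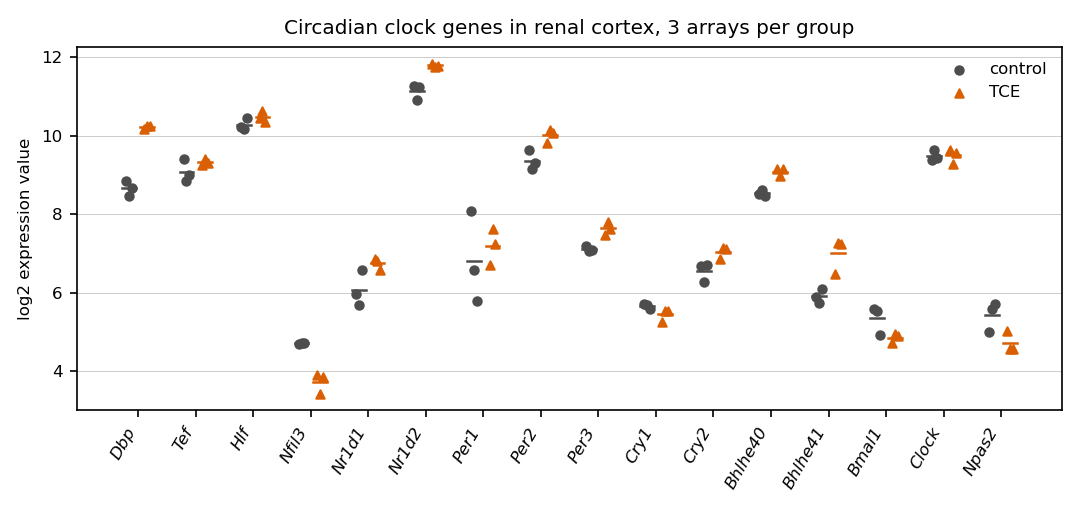
Log2 expression values of 16 circadian clock genes on 3 control (grey circles) and 3 TCE (orange triangles) renal cortex arrays, with short lines at the group means. Dbp is separated by the widest margin, at 8.46 to 8.85 in controls and 10.17 to 10.26 after TCE.

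Podocyte markers were higher as a group. Of 13 tested, 10 were higher, 6 of them at an unadjusted limma p under 0.05 (against 7.56% of all genes), and 3 were lower, 1 of them at that level. The median was 0.296 and lay between 0.295 and 0.43 when single arrays were left out, while the 6 became 3 without control replicate 1 and 4 without TCE replicate 1. In RNA from whole tissue, more podocytes in the sample and more RNA per podocyte cannot be told apart, and this holds for each cell type below.

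Nephrin (Nphs1), the backbone of the slit diaphragm, was 7.2, 7.49 and 7.53 in controls and 8.49, 8.32 and 8.02 after TCE (0.87 ± 0.15 SE). A second, dim probe set of Nphs1 gave 0.14. The receptor phosphatase Ptpro was 7.11, 7.43 and 7.28 against 8.04, 8.0 and 7.84 (0.69 ± 0.11). The surface sialomucin Podxl was 8.95, 8.92 and 9.15 against 9.95, 9.51 and 9.51 (0.65 ± 0.15). For each of these the groups did not overlap.

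The transcription factor Wt1 was 6.90, 7.22 and 6.67 against 7.60, 7.38 and 7.38 (0.52 ± 0.16), and Dach1 differed by 0.58 ± 0.18. The actin cross-linker Actn4, which other cell types also express, went the other way, at 12.05, 12.03 and 11.91 against 11.47, 11.74 and 11.65 (-0.37 ± 0.09). Markers of other glomerular and stromal cells had medians near 0. Endothelial markers had a median of -0.00943 over 15 genes, and mesangial, smooth muscle and fibroblast markers one of 0.0163 over 13 genes, which became -0.336 without TCE replicate 3. Pdgfra, a fibroblast receptor, was 10.98, 10.67 and 10.76 against 10.11, 10.31 and 10.54 (-0.49 ± 0.14).

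Most cell cycle genes were lower after TCE, though their mean level overlapped between the groups. Of 26 tested, 24 were lower, 7 of them at an unadjusted limma p under 0.05 (against 7.26% of all genes), and 2 were higher, 1 of them at that level. The median was -0.341 and lay between -0.525 and -0.251 when single arrays were left out. The mean over 29 of these genes was 4.43, 4.94 and 4.82 on the control arrays. On the TCE arrays it was 4.2, 4.24 and 4.48, so that the groups overlapped through control replicate 1 and TCE replicate 3. The 7 became 3 without TCE replicate 1 or 2, 4 without control replicate 2 or 3, and 3 with the hepatocyte level of each array as a covariate. The highest count with a single array left out was 10.

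The proliferation antigen Mki67 was 5.30, 6.0 and 6.31 in controls and 4.38, 4.38 and 4.88 after TCE (-1.32 ± 0.30 SE). The helicase subunit Mcm6 was 6.08, 5.98 and 6.41 against 4.94, 5.32 and 5.69 (-0.84 ± 0.22). Hmmr, a spindle protein, was 3.01, 3.27 and 3.16 against 2.23, 2.17 and 2.27 (-0.93 ± 0.08), close to the lowest value of the table, 2.17. In all 3 genes every treated array was below every control, and all 3 were too dim to be tested with a stricter filter. The replication clamp Pcna stood apart from them, at 10.26, 10.30 and 10.25 against 10.56, 10.41 and 10.65 (0.27 ± 0.08). Further probe sets of list members went both ways. That of Kif11 gave 1.12 (means 4.87 in controls and 5.99 after TCE), that of Top2a -0.97 and a dim one of Hmmr -0.05. The 11 members with TTTGAA in the promoter window were all lower, as were most of the other members.

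**Figure D3:**
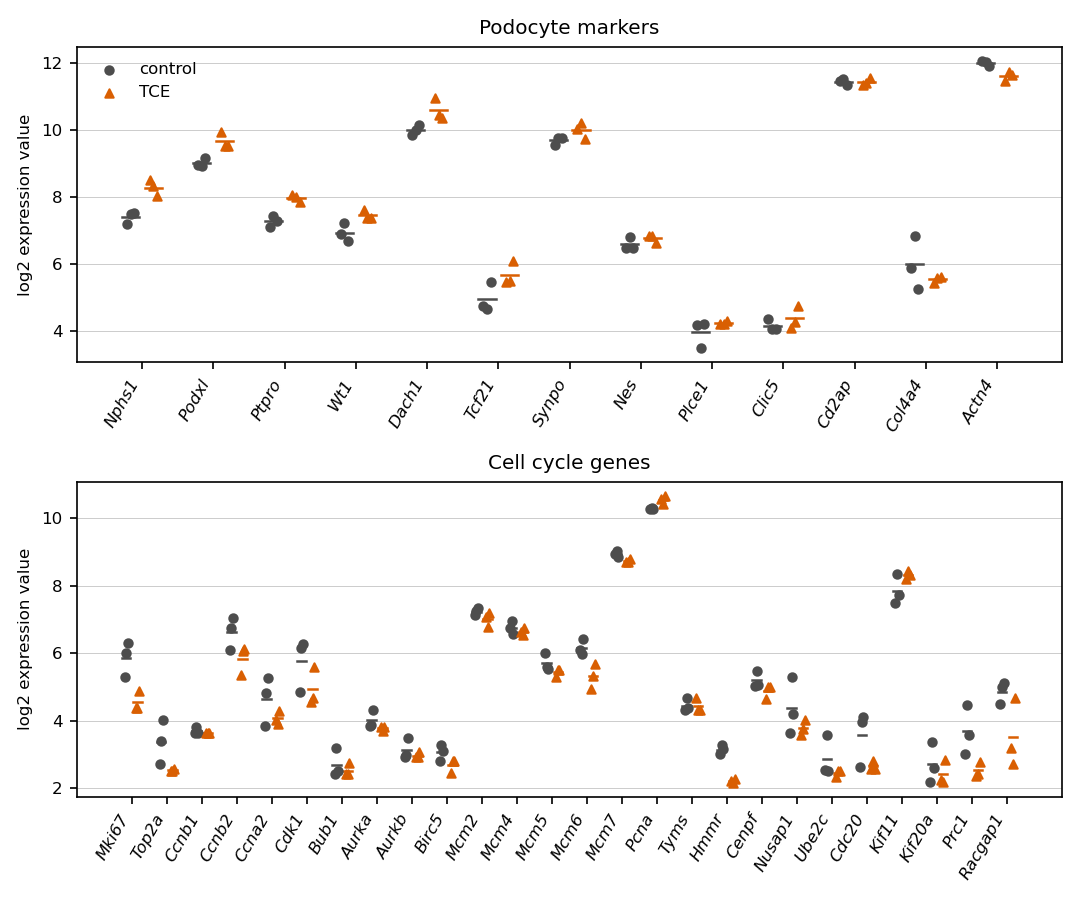
Log2 expression values of 13 podocyte markers (top) and 26 cell cycle genes (bottom) on 3 control (grey circles) and 3 TCE (orange triangles) renal cortex arrays, with short lines at the group means. Nphs1, Podxl and Ptpro are higher and Actn4 lower on all treated arrays, and Mki67 and Hmmr are lower on all treated arrays.

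Of 21 early proximal markers 15 were higher (median 0.128). At an unadjusted limma p under 0.05, 2 were higher (against 7.56% of all genes) and 0 lower (against 7.26%). Of 10 late proximal markers 9 were lower (median -0.131), 0 of them at that level, and the median was -0.0637 without TCE replicate 1 and -0.0834 without TCE replicate 3. The anion and phosphate transporter Slc17a1 was 10.54, 10.87 and 10.46 in controls and 11.02, 11.19 and 11.01 after TCE (0.45 ± 0.13 SE). Cubilin (Cubn), a receptor for filtered protein and the vitamin B12 complex, was 12.25, 12.37 and 12.26 against 12.41, 12.51 and 12.44 (0.16 ± 0.06). Its partner megalin (Lrp2) differed by 0.13 ± 0.09, and the phosphate transporter Slc34a1 by -0.01 ± 0.09.

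Several early transporters varied within the controls more than between groups. The glucose transporter Slc5a2 was 8.38, 10.12 and 8.36 in controls and 10.01, 9.32 and 9.71 after TCE (0.73 ± 0.53), which became 1.31 without control replicate 2, 0.44 without control replicate 1 and 0.43 without control replicate 3. The lactate transporter Slc5a12 was 6.87, 9.13 and 7.08 against 8.85, 7.96 and 8.67, and the bicarbonate transporter Slc4a4 was 11.29, 12.78 and 11.13 against 12.74, 11.85 and 12.48. In each, control replicates 1 and 3 were the lowest arrays and control replicate 2, which also carried the most liver transcript, the highest. Slc5a12 and Slc4a4 were picked for this after their values were seen. Without control replicate 2, 17 of the 21 early markers were higher, 10 of them at an unadjusted limma p under 0.05, and the median was 0.197. Without control replicate 3 the median was 0.0137, and without control replicate 1 it was 0.0592.

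Thick ascending limb markers had a median of 0.0176 over 13 genes, 0 of them at an unadjusted limma p under 0.05. Uromodulin (Umod), the main protein of normal urine, was 15.77, 15.61 and 15.65 against 15.74, 15.75 and 15.83 (0.10 ± 0.07). In the distal convoluted and connecting tubule the median was -0.0238 over 12 genes, but Klk1, tissue kallikrein, was 11.40, 11.83 and 11.66 in controls and 12.64, 12.46 and 12.23 after TCE (0.81 ± 0.15). Klk1b3, a related kallikrein whose sequence may share probes with it, was 11.86, 12.61 and 12.53 against 13.64, 13.28 and 12.86 (0.93 ± 0.28). Klotho (Kl), the co-receptor for the phosphate hormone Fgf23, was 6.68, 7.48 and 7.14 against 8.09, 7.66 and 7.71 (0.72 ± 0.23). All 3 were higher on every treated array.

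Of 13 principal cell markers of the collecting duct 7 were higher and 6 lower. At an unadjusted limma p under 0.05, 2 were higher and 1 lower (against 7.56% and 7.26% of all genes). The median was 0.0329, and 0.0433 to 0.271 with single arrays left out, the highest without TCE replicate 2. Of 8 intercalated cell markers 6 were higher, 1 of them at that level (2 and 3 without TCE replicate 2 and 3), against 7.56% of all genes. Their median was 0.197, and 0.111 without TCE replicate 2. The sodium channel subunit Scnn1g was 8.17, 8.44 and 8.34 against 8.77, 8.53 and 8.69 (0.35 ± 0.10) and the transcription factor Tfcp2l1 differed by 0.27 ± 0.07. St6gal1 differed by -0.40 ± 0.14, while a second probe set of it gave 0.73. The intercalated cell factor Foxi1 was 9.47, 9.22 and 9.39 against 9.76, 9.62 and 9.71 (0.34 ± 0.09). The water channel Aqp2 overlapped (-0.09 ± 0.29). The urea transporter Slc14a2, found in the inner medulla, was 8.97, 7.32 and 6.05 in controls and 8.20, 2.24 and 8.68 after TCE, so that TCE replicate 2 was near the lowest value. Medulla and thin limb markers had a median of -0.186 over 6 genes, which became -0.324 without control replicate 2 and 0.0429 without TCE replicate 2. All 3 macula densa markers were higher, 1 of them at an unadjusted limma p under 0.05 (against 7.56% of all genes). Their median was 0.171, and 0.104 without control replicate 3 and 0.538 without TCE replicate 1, where Ptges turned to -0.04. Ptgs2, the inducible cyclooxygenase of the macula densa, was 6.72, 7.08 and 7.50 against 7.92, 8.06 and 7.67 (0.78 ± 0.22).

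Of 13 macrophage markers 11 were higher (median 0.132), where 49.6% of all genes were. At an unadjusted limma p under 0.05, 2 were higher (against 7.56% of all genes). These became 4 without control replicate 2 and 1 without control replicate 1 or 3 or TCE replicate 3. Adgre1, a surface receptor used to mark macrophages, was 6.47, 6.33 and 6.22 in controls and 7.09, 6.82 and 7.01 after TCE (0.64 ± 0.10 SE). Of 17 interferon response genes 15 were higher (median 0.175), 3 of them at that level (against 7.56% of all genes) and 5 without TCE replicate 2 or 3. The antiviral GTPase Mx1 was 6.62, 6.4 and 6.37 against 6.91, 7.01 and 6.74 (0.42 ± 0.11).

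Genes of tubular injury showed no shared direction, with 10 higher and 12 lower of 22 and a median of -0.0659. Kidney injury molecule 1 (Havcr1), which is induced in damaged proximal tubules, was 6.02, 7.70 and 5.08 in controls and 3.99, 2.74 and 4.50 after TCE (-2.52 ± 0.79 SE, limma adjusted p = 0.273). Every treated array was below every control. Control replicate 2 was the highest, and without it the difference was -1.81. Havcr1 was too dim to be tested with a stricter filter. Lcn2, another injury marker, was at 2.17, the lowest value, on all 6 arrays, and was not tested. Clu differed by -0.13 ± 0.17. Osteopontin (Spp1) was 12.18, 11.53 and 11.17 against 11.76, 9.00 and 12.09, and its difference of -0.67 turned to 0.30 without TCE replicate 2.

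Enzymes of oxidative TCE metabolism were mostly higher, 7 of 9, with 3 at an unadjusted limma p under 0.05 (against 7.56% of all genes). Their median was 0.256, and 0.0801 without control replicate 3. Cyp2e1 was 11.81, 12.16 and 11.40 in controls and 12.63, 12.50 and 12.69 after TCE (0.82 ± 0.20 SE), with no overlap. Cyp2e1 is abundant in liver, and its highest control value was on control replicate 2, without which it differed by 1.0. Without control replicate 3, its lowest control, it differed by 0.62. Gstz1, which metabolises dichloroacetate, was 10.56, 10.50 and 10.44 against 10.74, 10.91 and 10.74 (0.30 ± 0.07). Cyb5a, an electron donor to P450 enzymes, differed by 0.26 ± 0.07.

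Of 24 genes of glutathione conjugation and mercapturate formation, 10 were higher and 14 lower (median -0.0724), and 0 reached an unadjusted limma p under 0.05, against 5 lower without TCE replicate 2. Ggt1, which starts the breakdown of glutathione conjugates at the brush border, was 14.58, 14.46 and 14.52 against 14.14, 14.52 and 14.13 (-0.25 ± 0.12). The beta-lyase Kyat1 differed by -0.15 ± 0.07. Among 19 genes of the Nrf2 response the median was -0.0333. Sulfiredoxin (Srxn1) was 6.73, 6.97 and 6.70 against 6.02, 6.45 and 5.86 (-0.69 ± 0.17), and Gclm, a subunit of the glutathione synthesis enzyme, was 14.63, 14.59 and 14.91 against 15.07, 15.03 and 15.13 (0.36 ± 0.10).

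Unfolded protein response genes went both ways, with 4 higher and 4 lower of 25 at an unadjusted limma p under 0.05 (against 7.56% and 7.26% of all genes). The lower ones numbered 1 without control replicate 1 or TCE replicate 1, 0 without control replicate 2 and 2 without TCE replicate 2, and the higher ones 3 to 6. Dnajb9, an endoplasmic reticulum chaperone partner, was 9.81, 9.72 and 9.67 in controls and 10.28, 10.09 and 10.36 after TCE (0.51 ± 0.09 SE). Another higher member, Manf, differed by 0.59 (0.53 to 0.64 with single arrays left out). The calcium-binding chaperone Calr, whose stress element is shown above, was 11.33, 11.41 and 11.35 against 11.18, 11.09 and 11.22 (-0.20 ± 0.06). The central chaperone Hspa5, whose promoter carries the same element, overlapped (0.06 ± 0.16). Of the 7 members with that element 4 were higher and 3 lower.

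In vitamin B12, methionine and folate metabolism the medians were 0.0431 over 22 genes and -0.0152 over 23. Methionine synthase (Mtr) was 4.32, 4.27 and 4.29 against 4.29, 4.86 and 4.67 (0.32 ± 0.15, and 0.19 without TCE replicate 2), and methylmalonyl-CoA mutase (Mmut) differed by 0.28 ± 0.19. Mat2a, which makes S-adenosylmethionine, was 14.35, 14.28 and 14.42 against 13.85, 14.15 and 13.93 (-0.37 ± 0.10). A second probe set of Mat2a, at a mean of 9.53 in controls and 9.82 after TCE, gave 0.29, and the mean over its probe sets differed by -0.03. The folate receptor Folr1 was 12.31, 12.70 and 12.25 against 12.90, 12.86 and 13.15 (0.55 ± 0.15). Ftcd, which feeds formimino groups into the folate pool, was 9.71, 9.47 and 9.63 against 8.54, 9.29 and 8.91 (-0.69 ± 0.20). The groups did not overlap for Folr1 and Ftcd. Mthfd1 (0.13 ± 0.12) and Aldh1l1 (-0.13 ± 0.13), which oxidises formyl-tetrahydrofolate, overlapped.

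Genes of glycolysis and gluconeogenesis and genes of lipid synthesis were mostly lower. Of 20 glycolysis and gluconeogenesis genes 15 were lower (median -0.0905). At an unadjusted limma p under 0.05, 5 were lower (against 7.26% of all genes), and 3 without TCE replicate 1. Pfkl, liver-type phosphofructokinase, was 7.54, 7.42 and 7.44 in controls and 6.93, 7.13 and 7.13 after TCE (-0.40 ± 0.08 SE), and Pklr differed by -0.56 ± 0.15. Of 16 fatty acid synthesis genes 14 were lower (median -0.169), 3 of them at that level (against 7.26% of all genes). These 3 became 0 without TCE replicate 1, 1 without control replicate 1 or 2 or TCE replicate 3, and 6 without TCE replicate 2. Without control replicate 2, 10 were lower and 6 higher. The mean over 17 of these genes was 7.19, 7.46 and 6.97 on the control arrays and 6.9, 6.98 and 6.98 on the TCE arrays, so that the groups overlapped through control replicate 3. Acaca, the rate-limiting carboxylase, was 8.02, 7.83 and 7.62 against 7.22, 7.52 and 7.45 (-0.42 ± 0.13). Of 16 cholesterol synthesis genes 13 were lower (median -0.11), 3 of them at that level (against 7.26% of all genes). Dhcr7, the last enzyme of one branch, was 9.42, 9.29 and 9.37 against 9.04, 9.12 and 8.94 (-0.32 ± 0.07). Respiratory chain genes had a median of 0.00955 over 32 and fatty acid oxidation genes one of 0.00776 over 25.

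Among other renal functions, angiotensinogen (Agt) was 8.85, 8.72 and 8.92 in controls and 7.99, 8.53 and 8.01 after TCE (-0.65 ± 0.17 SE), in a renin-angiotensin and kallikrein list with a median of 0.0457 over 9 genes. Glud1, which releases ammonium from glutamate, differed by 0.17 ± 0.06, in an ammonia and acid-base list with 9 of 13 higher. The drug efflux pump Abcg2 was 11.71, 11.71 and 11.57 against 11.26, 11.56 and 11.28 (-0.30 ± 0.10), with 9 of 14 organic ion and drug transport genes lower. Of 21 immediate early genes 14 were higher (median 0.261, but 0.071 without TCE replicate 3). Among them were Id1 (0.57, and 0.54 to 0.59 with single arrays left out) and Ier3 (0.35 ± 0.13). Glucocorticoid response genes had a median of 0.103 over 15, which was -0.0768 without control replicate 3, and Fkbp5, a target of that receptor, was 9.19, 8.16 and 8.12 against 7.80, 7.95 and 7.70 (-0.67 ± 0.31, and -0.32 without control replicate 1). Genes of the p53 response and apoptosis had a median of -0.062 over 14. With single arrays left out, 5 to 8 of them were higher and 6 to 9 lower. Bmf, a member too dim to be tested with a stricter filter, differed by -0.61 (-0.64 to -0.57 with single arrays left out).

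Markers of cells that could be carried along with cortex were read as well. The median was 0.0614 over 3 erythroid genes, and -0.356 without control replicate 1 and 0.245 without control replicate 2. One of the 3, Slc4a1 (0.32), is also in the intercalated cell list, while Alas2 differed by -0.40 and Hbb by 0.06. Over 4 adipocyte genes the median was -0.198, and 0.00989 without TCE replicate 3. For 2 adrenal cortex genes it was -0.541 (-0.642 to -0.428 with single arrays left out), and for 5 lymphocyte and neutrophil genes 0.108, or -0.0449 without control replicate 1 and 0.289 without control replicate 3. The 2 adrenal genes, Hsd3b1 and Cyp21a1, were too dim to be tested with a stricter filter. The mean over 7 adrenal genes was 2.24 to 2.5 on the kidney arrays, close to the lowest value of 2.17. In all 4 lists 0 genes reached an unadjusted limma p under 0.05, and each list had 1 gene at that level without TCE replicate 2. In the erythroid list that gene was Slc4a1. Fabp4, a fatty acid binding protein of fat cells, was 8.19, 7.51 and 7.67 against 7.75, 5.33 and 8.94, and its difference of -0.45 became 0.55 without TCE replicate 2 and -1.25 without TCE replicate 3.

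**Figure D4:**
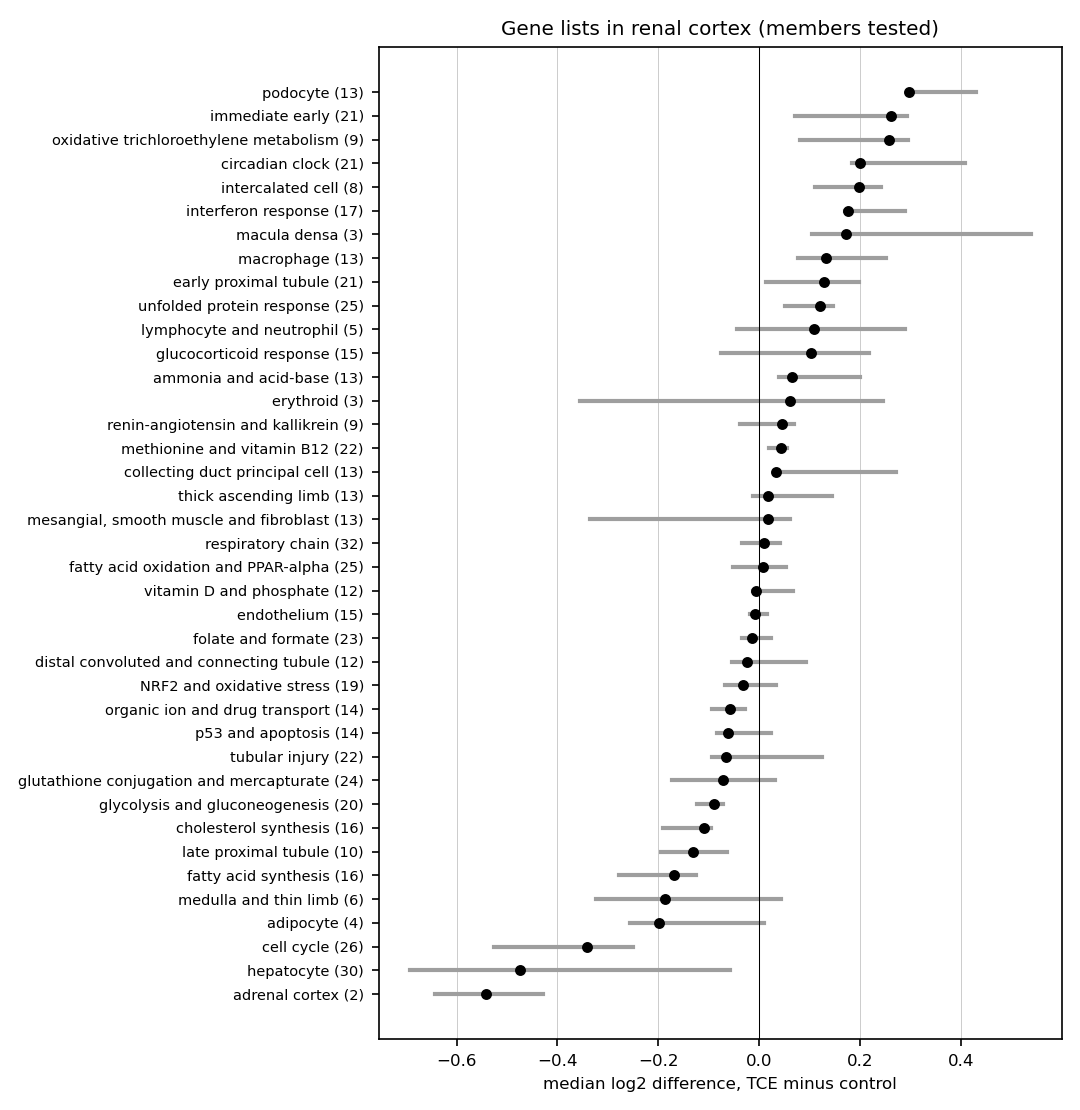
Median log2 difference (TCE minus control) of the tested members of 39 gene lists in renal cortex (black points, number of members in parentheses), with grey bars from the lowest to the highest median when each of the 6 arrays was left out in turn. The podocyte list is at 0.296, the cell cycle list at -0.341 and the hepatocyte list at -0.474, with a bar that reaches -0.0583.

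Among single genes with a mean above 6 in both groups, stanniocalcin 1 (Stc1), a hormone that acts on calcium and phosphate transport, was 7.63, 7.86 and 8.70 in controls and 9.59, 9.11 and 9.53 after TCE (1.35 ± 0.31 SE). A second probe set of Stc1 gave 2.0 and another, dim one 0.12. Pdpn, a surface glycoprotein of podocytes and lymphatic vessels that is not in the podocyte list, was 5.08, 6.56 and 6.38 against 7.33, 6.97 and 7.02 (1.10 ± 0.41, and 0.64 without control replicate 1). Robo2, a guidance receptor also outside that list, was 6.44, 6.61 and 6.94 against 7.41, 7.54 and 7.52 (0.83 ± 0.14), and its probe sets averaged gave 0.39. The fatty acyl-CoA reductase Far1 was 6.41, 6.67 and 6.73 against 7.30, 7.60 and 7.45 (0.84 ± 0.12). Golph3, a Golgi phosphoprotein, was 8.15, 8.10 and 7.85 against 8.78, 8.77 and 9.04 (0.83 ± 0.12), and Exoc5, an exocyst subunit, was 7.67, 7.94 and 8.24 against 8.95, 8.66 and 8.77 (0.84 ± 0.16). Lxn, a carboxypeptidase inhibitor, and the sorting nexin Snx10 differed by 1.03 ± 0.29 and 0.87 ± 0.27.

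On the lower side, the signal transducer Stat5a was 7.10, 6.85 and 7.03 in controls and 5.81, 6.62 and 5.58 after TCE (-0.99 ± 0.28). Ten1, a telomere-capping protein, was 7.17, 7.72 and 7.69 against 6.67, 6.56 and 6.35 (-1.0 ± 0.18). Mdc1, a DNA damage checkpoint mediator, was 8.05, 7.70 and 7.82 against 6.85, 7.12 and 7.2 (-0.80 ± 0.14), and Tgfbi, a matrix protein, was 11.45, 10.97 and 11.31 against 10.17, 10.84 and 10.34 (-0.79 ± 0.21). Prob1 (-1.12), Entrep3 (-1.11), Ankrd11 (-0.92), Kiaa1614 (-0.91, and -0.58 without TCE replicate 2), Reep6 (-0.91), Abca4 (-0.85) and Rimbp2 (-0.78) were the others among the 12 with the largest differences, besides Ap4b1 (-0.80). The treated and control values did not overlap for any of these, which the rule for choosing them required.

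The kidney difference was set against the liver difference of the same study in a fit of all 12 arrays. That fit treats the arrays as independent, although both tissues were taken from the same rats. By limma with Benjamini-Hochberg adjustment, 57 of 10652 genes (0.535%) had a kidney difference unlike the liver difference, and the count ran from 0 without kidney TCE replicate 1 to 108 without kidney TCE replicate 2. With the replicate number as a block the count was 9. Of the clock genes, Per3 differed by 0.52 in kidney and by 2.64 in liver (kidney minus liver -2.11, adjusted p = 0.0142) and Dbp by 1.56 and 3.71 (-2.14, adjusted p = 0.0214). Mki67 was lower in kidney (-1.32) and higher in liver (1.02), a difference of -2.35 (adjusted p = 0.0364). Msra, which repairs oxidised methionine, was 10.46, 10.57 and 10.52 in control and 10.93, 11.18 and 11.00 in treated kidneys, with a difference of 0.52 there and of -1.07 in liver (kidney minus liver 1.58, adjusted p = 0.0162). Magt1, an oligosaccharyltransferase subunit, differed by 0.47 and -0.83 (adjusted p = 0.0142), and Prkacb, a catalytic subunit of protein kinase A, by 0.40 and -0.41 (adjusted p = 0.0167).

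**Figure D5:**
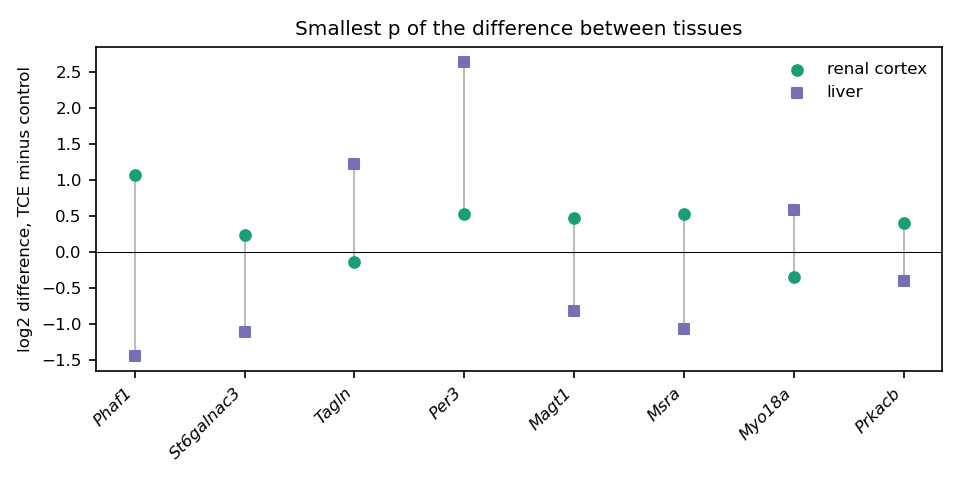
Log2 difference (TCE minus control) in renal cortex (green circles) and in liver (purple squares) for the 8 genes with the smallest p of the difference between tissues. Phaf1, Magt1, Msra and Prkacb are above 0 in kidney and below 0 in liver, and Per3 is above 0 in both, at 0.52 and 2.64.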

How the data were processed

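Values for 31099 probe sets on 12 arrays were used as the authors deposited them, on a log2 scale. That scale was read from their range, 2.17 to 16.5. The submitters' processing notes name affy and limma, without their roles. How background, normalization and probe set summary were handled, and in which versions, is not given in the sources used here. With 3 arrays a group, their number limits the precision.

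A gene was represented by its singly named probe set with the highest mean over the 12 arrays (20826 probe sets had 1 symbol, 436 several, 9780 none and 57 were controls) and tested where its mean exceeded the 40th percentile (2.43 in kidney). limma 3.58.1 in R 4.3.3 compared 3 TCE with 3 control arrays, without covariates, two-sided, with Benjamini-Hochberg adjustment; SE is its moderated standard error. The difference of effects used all 12 arrays, treated as independent. In a test on simulated data for the kidney comparison (10563 genes, 200 changed), 92% of log2 changes of 2 and 75% of log2 changes of 1 were called, with 15 false calls. Its noise was drawn independently for each gene and array, without variation that genes of an array share, such as liver transcripts. In the measured data 93 genes differed by more than 2-fold and 0 were called. The simulated shares are therefore not the power of this comparison.

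The members and the gene lists were chosen with earlier results of these data known. Genes were named by a rule: the 12 largest differences in each direction without overlap, at an unadjusted p under 0.05 and a mean above 6; up to 4 members of each list with the smallest p; preset clock, segment, injury, metabolic and liver genes; and 8 genes of the difference of effects. Not every gene given by the rule is described above. Ahsg, Hp, Wt1, Dach1, Hspa5, Bhlhe41, Npas2, Clock, Slc5a12, Slc4a4 and Slc14a2 were added after their values were seen. Motifs were searched in 33469 RefSeq promoter windows of 27457 genes (GRCr8); 3251 genes had several windows, and a gene counted if any window matched. Same-numbered treated and control kidneys did not deviate together (correlations -0.09, -0.01 and 0.01). Same-numbered kidney and liver arrays correlated at 0.05 to 0.08 in controls, and unlike-numbered ones at -0.06 to -0.01. In TCE these ranges were -0.01 to 0.06 and -0.07 to 0.05. Such small values do not decide whether equal numbers mark the same rat, and the labels do not say so. The numbers were not used as pairs in the main fits. Alternatives were other filters, probe set rules, normalizations and fits, a hepatocyte covariate, a replicate block, each array left out and, chosen after seeing the data, leaving out liver-rich genes and a 12-array fit filtered on the kidney arrays.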

Additional observations from a re-analysis of the deposited data

Results flagged for a closer look

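Genes in this section stood out because the kidney difference was unlike the liver difference; values are the kidney difference minus the liver difference on the log2 scale. By limma's test of that difference with Benjamini-Hochberg adjustment over 10652 genes, the following named genes passed, and 0 genes in all passed without kidney TCE replicate 1. Those with a larger value in kidney were Phaf1 (2.52), the methionine repair enzyme Msra (1.58), the anion exchanger Slc4a1 (1.38), which erythroid and intercalated cells share, the sialyltransferase St6galnac3 (1.35), Magt1 (1.31), the complex I subunit Ndufb8 (1.00), Slc17a1 (0.98), Ptpro (0.95), the dehydrogenase subunit Dld (0.84), Prkacb (0.81) and the complex III subunit Uqcrc2 (0.79). Those with a smaller value in kidney were Mki67 (-2.35), Dbp (-2.14), Per3 (-2.11), the smooth muscle gene Tagln (-1.36), Mdc1 (-1.11), the myosin Myo18a (-0.92) and Abca4 (-0.90). For some of these most of the value lay in liver. St6galnac3 differed by 0.23 in kidney and -1.12 in liver, where it was dim (means 3.66 in controls and 2.54 after TCE). Tagln differed by -0.14 in kidney and 1.22 in liver, and Slc4a1 by 0.32 in kidney.

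For a further 7 genes all treated arrays lay on one side of the controls in kidney and on the other side in liver, while the difference did not pass that test. They were Pdpn (1.64, limma adjusted p = 0.13), Exoc5 (1.52, 0.0619), Prob1 (-1.87, 0.0932), the calcium channel Trpv6 (-0.82, 0.108), Pdgfra (-0.78, 0.107), the mitochondrial superoxide dismutase Sod2 (0.55, 0.111) and the fatty acid transporter Slc27a2 (-0.30, 0.193).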

How the results depend on the processing

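The count of kidney genes past an adjusted p of 0.05, 0 with the settings used, was 2 with no filter on dim probe sets (Afp and C2h1orf162), 1 with a stricter filter and 1 with trend and robust variances (Dbp both times, adjusted p = 0.0182 and 0.0271), 10 of 10652 genes with all 12 arrays in 1 fit (among them Dbp, Ten1 and Abca4), 20 of 10563 in that fit with the dim probe sets filtered on the kidney arrays, an alternative chosen after seeing the data (Mdc1 and Hmmr also among them), and 0 with any single array left out; the 12-array fits differ only in the genes tested, and the causes otherwise were not tested. Counts at an unadjusted p under 0.05 were 919 to 2099 with single arrays left out, 1643 with the hepatocyte level as a covariate, 1482 without liver-rich genes and 1166 with a replicate block. Genes without overlap numbered 2656 to 4144 with single arrays left out, where fewer arrays have to separate. The difference of effects gave 0 to 108 genes with single arrays left out and 9 with a replicate block. The hepatocyte difference was -1.23 by the list's median and -0.90 to -0.11 with single arrays left out. Of 2976 values of named genes under alternatives, 32 turned sign, none of them past the threshold in either setting: averaging all probe sets of a gene, St6gal1 (0.16), Aqp1 (0.08), Amn (0.01), Mthfs (0.11) and Mtrr (-0.09); with the hepatocyte covariate Lipe (0.12), Slc34a1 (0.07) and Fgb (0.10); with centred arrays Slc34a1 (0). With single arrays left out, these genes changed sign within their range: Ptges -0.04 to 0.39, Pappa2 -0.32 to 0.54, S100a8 -0.04 to 0.3, Hbb -0.36 to 0.42, Fabp4 -1.25 to 0.55, Adipoq -0.08 to 0.42, Lipe -0.14 to 0.2, Cyp21a1 -0.41 to 0.07, Per1 -0.13 to 1.01, Clu -0.28 to 0.03, Spp1 -1.25 to 0.3, Slc34a1 -0.06 to 0.07, Slc12a1 -0.02 to 0.44, Slc12a3 -0.34 to 0.07 and Aqp2 -0.34 to 0.1. List medians moved by less than the spread between arrays in 641 of 661 cases, and 11 lists held the other cases. That measure does not show that signs held. With single arrays left out, many medians near 0 changed sign. Among these were tubular injury (-0.0938 to 0.124), glucocorticoid response (-0.0768 to 0.217) and the mesangial, smooth muscle and fibroblast list (-0.336 to 0.0615). The podocyte, cell cycle and clock medians kept their sign.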
